A study of Homo sapiens with 4 samples.

Results

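BTG1, BTG2 and BTG3 are 3 of the 2864 genes with values in the table of read counts and TPM that the authors deposited for A375 cells, a human melanoma cell line with an activating mutation of the BRAF kinase. They were taken by name, as the genes of the BTG family with substantial reads, and were chosen by their counts and TPM in these same libraries, so their levels and ratios are a description and carry no test. RNA of 4 conditions was sequenced, with 1 library per condition and 1 batch label for all. A375P is the untreated parental culture, and A375R is a strain made from A375 by rising doses of vemurafenib, an inhibitor of mutant BRAF. A375+DMSO is A375 given the solvent DMSO at 1‰ for 48 h, and A375+VEM is A375 given 2 μM vemurafenib for 48 h. A375R is 1 strain, and the labels do not give its drug concentration at harvest. No cell carried an engineered gene change.

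BTG proteins share a conserved BTG domain with the TOB proteins, and most cells use them to slow growth and to leave the cell cycle. Through this domain BTG1 and BTG2 bind the deadenylases of the CCR4-NOT complex, which shorten the poly(A) tails of mRNAs. BTG2 is a classical target of p53 and is induced quickly by growth factors and by DNA damage, BTG1 is known as a target of FOXO factors and as a gene highest in resting cells, and BTG3 is known to bind and restrain the E2F1 transcription factor.

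The authors' coordinates belong to hg19, the build listed in the submitters' processing notes. BTG1 is at chr12:92534054-92539673 (minus strand), BTG2 at chr1:203274664-203278730 (plus strand) and BTG3 at chr21:18965968-18985268 (minus strand). The lengths behind the TPM were 4680 bases for BTG1, 2712 for BTG2 and 1594 for BTG3. In the GENCODE v29 annotation BTG1 and BTG2 each have 2 exons and code for 171 and 158 amino acids, while BTG3 has transcripts of 6 and 5 exons for 296 and 252. The same annotation places LINC01619 and an antisense RNA over part of BTG1 and BTG3-AS1 over part of BTG3, and no other gene over BTG2. LINC01619 lies on the same strand as BTG1, so counting by strand would not separate their reads. Whether reads were counted by strand is not given in the sources used here. Reads of the antisense RNA and of BTG3-AS1 therefore cannot be told apart from those of BTG1 and BTG3 either.

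The promoters are shown because the 3 genes differed in their profile over the libraries. Each sequence holds the 250 bases before the RefSeq start on GRCh38.p14, at chr12:92145847-92146096 (minus strand) for BTG1, chr1:203305269-203305518 (plus strand) for BTG2 and chr21:17612902-17613151 (minus strand) for BTG3. Capitals mark matches, on either strand, to the CCAAT box (CCAAT), the half-site of the cAMP response element (TGACG), the TATA box (TATAAA) and the GC box (GGGCGG).
BTG1: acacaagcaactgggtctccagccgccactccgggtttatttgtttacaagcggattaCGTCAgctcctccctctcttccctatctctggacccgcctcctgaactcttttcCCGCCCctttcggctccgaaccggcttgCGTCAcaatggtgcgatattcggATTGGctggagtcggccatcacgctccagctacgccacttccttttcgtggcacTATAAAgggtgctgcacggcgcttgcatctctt
BTG2: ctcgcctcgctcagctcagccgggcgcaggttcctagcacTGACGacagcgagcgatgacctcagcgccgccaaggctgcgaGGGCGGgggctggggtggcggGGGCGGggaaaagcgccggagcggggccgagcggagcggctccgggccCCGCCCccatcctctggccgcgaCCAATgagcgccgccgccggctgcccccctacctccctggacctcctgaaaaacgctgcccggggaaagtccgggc
BTG3: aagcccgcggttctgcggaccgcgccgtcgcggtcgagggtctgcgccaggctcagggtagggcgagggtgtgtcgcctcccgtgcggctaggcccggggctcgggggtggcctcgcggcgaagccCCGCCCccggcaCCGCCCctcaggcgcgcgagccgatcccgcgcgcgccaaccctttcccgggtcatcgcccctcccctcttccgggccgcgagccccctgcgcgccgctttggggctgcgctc

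BTG1 had 1 CCAAT box, 2 half-sites, 1 GC box and a TATA box 33 bases before the RefSeq start. BTG2 had 1 CCAAT box, 1 half-site and 3 GC boxes, and BTG3 had 2 GC boxes and none of the other motifs. Of 35116 promoter windows of the same length, 32.0% held a CCAAT box, 21.2% the half-site, 10.7% a TATA box and 42.6% a GC box. The full cAMP response element TGACGTCA, which contains the half-site, the AP-1 site TGACTCA and the p53 half-site were in none of the 3 windows, and in 1.65%, 4.20% and 5.57% of all. The p53 half-site was sought without mismatch as RRRCWWGYYY. In it R is A or G, W is A or T and Y is C or T. Sites outside the windows were not sought. G and C made up 56.4% of the BTG1 window, 74.8% of that of BTG2 and 78.4% of that of BTG3, against a median of 58.0%. A match is a stretch of letters and not a site shown to be bound. In GENCODE v29 each BTG gene starts inside its window, so a distance to the start depends on the annotation.

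The genes of the table, which is sorted by name and ends early in the letter C, carry 8.48% to 8.94% of the TPM of each library, and their counts sum to between 1891215 and 2054277 reads, which is not the depth. Of 7 genes of the melanocyte lineage that the table holds, 5 had a TPM of at least 1 in A375P, A375R and A375+DMSO and 6 in A375+VEM, with ABCB5 at no more than 6 reads in any library. Of 8 genes of other cell types, 2 reached a TPM of 1, ACTA2 and ALB, and these did so in all 4 libraries. The summed TPM of the 8 was 157 in A375P and between 75.8 and 87.6 in the others; its part in the results was not tested. Intervals are exact at 95% and cover counting error only, since no condition had a second library.

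BTG2 set the parental culture apart from the rest. Its reads numbered 3249 in A375P, 446 in A375+DMSO, 592 in A375R and 638 in A375+VEM. The TPM was 139.8 in A375P (95% interval 135 to 145), 20.6 in A375+DMSO (18.7 to 22.6), 28.2 in A375R (26.0 to 30.6) and 29.6 in A375+VEM (27.4 to 32.0). A375P was far above the other 3 libraries, A375+VEM and A375R overlapped within counting error, and A375+DMSO was lowest. From the highest to the lowest library BTG2 spanned 6.80-fold, and 215 of the 1646 protein-coding genes that reached a TPM of 1 in any library spanned more. In a bulk library fewer cells with BTG2 and less BTG2 RNA per cell cannot be told apart.

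BTG1, the most abundant of the 3 in every library but A375P, varied less. Reads of BTG1 numbered 5318 in A375P, 4280 in A375+DMSO, 6145 in A375R and 3552 in A375+VEM. The TPM was 133 in A375P (129 to 136), 114 in A375+DMSO (111 to 118), 169.6 in A375R (165 to 174) and 95.6 in A375+VEM (92.5 to 98.8). The resistant strain was highest and the cells under acute vemurafenib lowest, and no interval overlapped another. The span was 1.77-fold, and 1088 of the 1646 genes spanned more. The pseudogene BTG1P1, a copy of BTG1, had 5, 1, 0 and 6 reads in the same order of libraries, beside at least 3552 of BTG1 itself.

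BTG3 was the least abundant of the 3 per length in A375P and A375+VEM, while BTG2 was so in A375R and A375+DMSO. Reads of BTG3 numbered 371 in A375P, 482 in A375+DMSO, 544 in A375R and 320 in A375+VEM. The TPM was 27.2 in A375P (24.5 to 30.1), 37.8 in A375+DMSO (34.5 to 41.3), 44.1 in A375R (40.5 to 47.9) and 25.3 in A375+VEM (22.6 to 28.2). A375R and A375+DMSO formed the upper pair and A375P and A375+VEM the lower pair, and the intervals overlapped within each. The direct ratio of A375R against A375+DMSO was 1.17, with an interval of 1.03 to 1.32 that leaves out 1. Like BTG1, BTG3 was highest in A375R and lowest in A375+VEM, with a span of 1.74-fold.

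**Figure D1:**
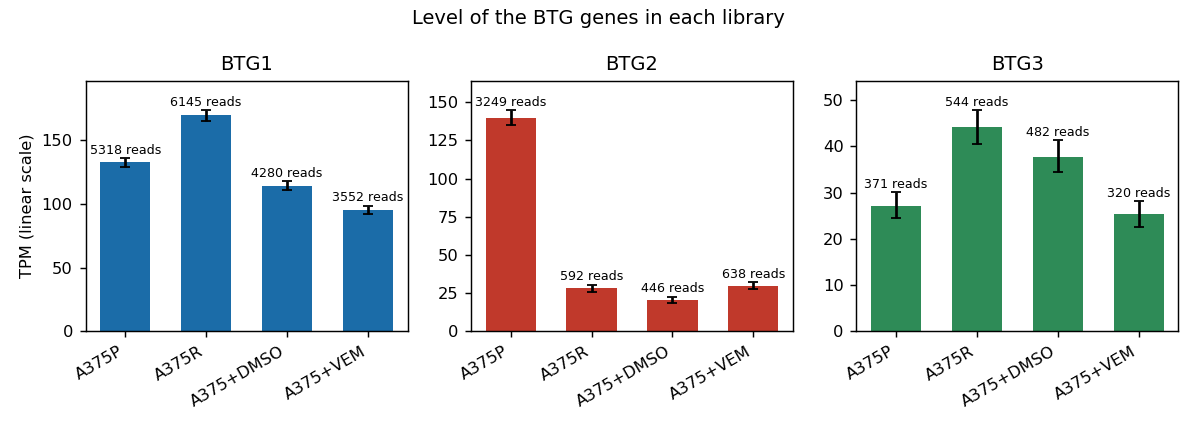
TPM of BTG1, BTG2 and BTG3 (linear axis from 0, a different scale in each panel) in the 4 libraries, with exact 95% counting intervals as error bars and the read count above each bar. BTG2 stands at 139.8 in A375P and at 29.6 or lower in the other libraries, while BTG1 and BTG3 are highest in A375R and lowest in A375+VEM.

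The makeup of the family therefore differed between libraries. Summed over the 3 genes, the TPM was 299.5 in A375P, 172.7 in A375+DMSO, 241.9 in A375R and 150.5 in A375+VEM. BTG2 gave 46.7% of that sum in A375P, 11.9% in A375+DMSO, 11.7% in A375R and 19.7% in A375+VEM. BTG1 gave 44.3% of it in A375P, 66.2% in A375+DMSO, 70.1% in A375R and 63.5% in A375+VEM. BTG3 ranged from 9.07% in A375P to 21.9% in A375+DMSO. BTG4, the family member known for clearing maternal mRNA in the egg, had no read in A375P, A375R and A375+DMSO, which allows a TPM of up to 0.345, 0.382 and 0.370 at 3 reads, and 4 reads in A375+VEM. TOB1 and TOB2 were not analysed here.

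Pairs of libraries were compared by the log2 ratio of (TPM + 0.1), with 1.5-fold in either direction as the threshold, over the genes that reached a TPM of 1 in either library. All other ratios are of TPM itself. The study used the first pair for lasting resistance. A375R was made under the drug and A375P was untreated, so resistance, drug exposure, culture and library cannot be told apart in it. In A375R against A375P, BTG2 was lower at a ratio of 0.202 (95% interval 0.184 to 0.220), a log2 ratio of -2.31, and BTG3 was higher at 1.62 (1.42 to 1.86). The interval of BTG3 includes 1.5. Its log2 ratio was 0.70, beside a threshold of 0.585. With all genes scaled to a median ratio of 1 (median scaling) it was 0.60, and under TMM scaling 0.62. BTG1 stayed inside the threshold at 1.28 (1.23 to 1.33). Of all 1689 genes compared, 26.8% were past 1.5-fold higher and 17.5% past it lower, so a call in this pair was common, and 13 genes had a lower ratio than BTG2. Genes past the threshold were 60.4% higher here, against 53.3% under median scaling and 55.0% under TMM scaling.

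The second pair addresses the acute response to the drug, and none of the 3 genes passed 1.5-fold in it. In A375+VEM against A375+DMSO, BTG2 was at 1.44 (1.27 to 1.63), BTG1 at 0.836 (0.799 to 0.874) and BTG3 at 0.669 (0.579 to 0.772). BTG3 lay at the edge of the threshold, with a log2 ratio of -0.58, and passed it at -0.68 once all genes were scaled to a median ratio of 1. Each interval left out a ratio of 1, and that of BTG2 includes 1.5. Among 1784 genes 26.5% were past the threshold higher and 19.7% lower. Of the genes past it, 57.3% were higher, against 50.4% under median scaling and 47.5% under TMM scaling.

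The 2 libraries of cells never given vemurafenib differed in BTG2 by more than either drug pair. In A375+DMSO against A375P the ratio of BTG2 was 0.147 (0.133 to 0.162), a log2 ratio of -2.76, with 8 of 1720 genes lower still. BTG1 was at 0.863 (0.828 to 0.898) and BTG3 at 1.39 (1.21 to 1.60), both inside the threshold. The interval of BTG3 includes 1.5. In this pair 26.8% of genes were past 1.5-fold higher and 18.9% lower. Genes past the threshold were 58.7% higher, against 51.3% under median scaling and 52.4% under TMM scaling. The pair holds the solvent, the culture and the library together, and they cannot be told apart.

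Set against the solvent control instead, A375R had no BTG gene past 1.5-fold. BTG1 was at a ratio of 1.48 (1.43 to 1.54), BTG2 at 1.37 (1.21 to 1.55) and BTG3 at 1.17 (1.03 to 1.32). All 3 intervals lay above 1, where BTG2 had been lower against A375P. Those of BTG1 and BTG2 include 1.5. Here 10.5% of 1702 genes were past the threshold higher and 9.99% lower, and 186 genes had a higher ratio than BTG1.

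In A375+VEM against A375P, BTG2 was again lower, at 0.212 (0.194 to 0.231). BTG1 was at 0.721 (0.691 to 0.752) and BTG3 at 0.931 (0.799 to 1.08), whose interval includes 1. The shares past 1.5-fold were 36.9% higher and 25.3% lower among 1782 genes, and 69 genes had a lower ratio than BTG2. Genes past the threshold were 59.3% higher in this pair, and 48.9% under TMM scaling, under which BTG1 passed the threshold at a log2 ratio of -0.70. The comparisons with A375P share that library, so the low ratios of BTG2 in 3 pairs rest on its 1 high value.

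**Figure D2:**
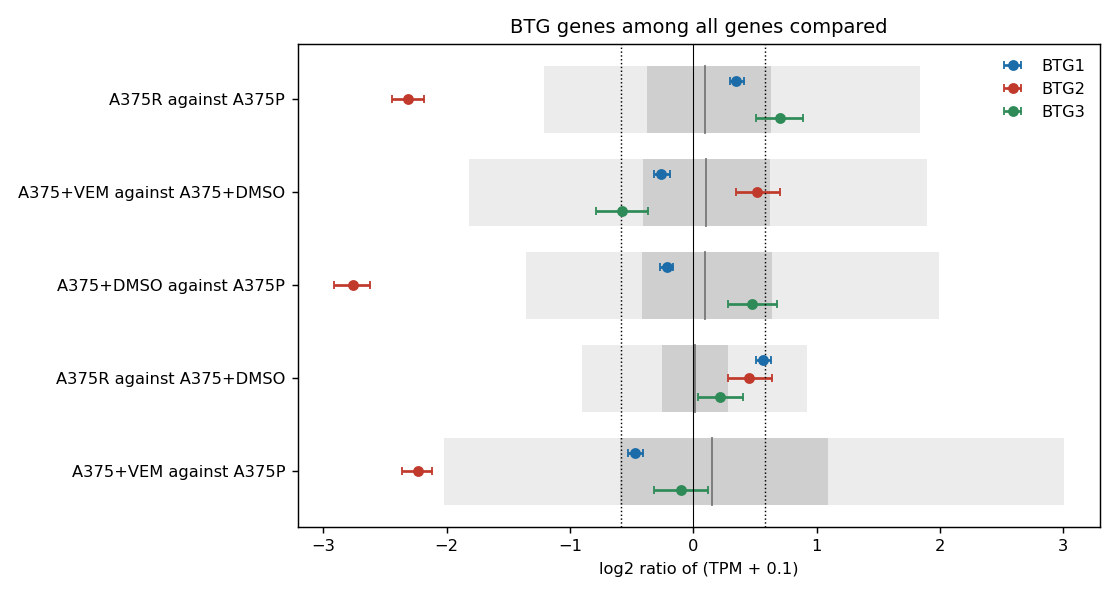
Log2 ratio of (TPM + 0.1) of BTG1, BTG2 and BTG3 in 5 pairs of libraries, with exact 95% counting intervals, over the spread of all genes compared (dark band, middle 50%; light band, 5th to 95th percentile; grey line, median). Dotted lines mark 1.5-fold, and BTG2 lies left of the light band in the 3 pairs that contain A375P and right of 0 in the other 2.

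Among 13 other targets of p53, 12 reached a TPM of 1 in the libraries compared. In A375+DMSO against A375P 7 of the 12 were lower and 1 higher, beside 18.9% and 26.8% of all genes. The median log2 ratio was -0.81 against 0.09 over all genes. The nuclease gene AEN was lower by this rule, with a TPM of 262 in A375P, 66.5 in A375+DMSO, 138 in A375R and 31.3 in A375+VEM. BLOC1S2, which encodes a subunit of an organelle biogenesis complex, had a TPM of 68.6 in A375P, 20.8 in A375+DMSO, 27.3 in A375R and 23.7 in A375+VEM. Like BTG2 it was highest in A375P and lowest in A375+DMSO. The apoptosis genes BAX and BBC3 were at log2 ratios of -1.02 and -1.03 in A375+DMSO against A375P.

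In A375R against A375P 6 of these 12 were lower and 2 higher, beside 17.5% and 26.8% of all genes. The median was -0.54 against 0.10 over all genes. ASTN2 was 1 of the 2 higher ones, with a log2 ratio of 0.64. In A375+VEM against A375+DMSO 3 were higher and 2 lower, beside 26.5% and 19.7% of all genes. The median was 0.04 against 0.11, so the list went both ways. BAX was at 0.59 and ABHD4, a lipid hydrolase, at 0.98 in that pair, while AEN was at -1.09 and the ceramidase ACER2 at -1.43. Against A375+DMSO, A375R had 4 of 12 higher, AEN at 1.05 among them, and none lower, beside 10.5% and 9.99% of all genes. The median there was 0.38 against 0.02 over all genes. In A375+VEM against A375P 1 was higher and 5 lower, beside 36.9% and 25.3% of all genes, at a median of -0.49 against 0.15.

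Of 6 immediate early genes, the class of rapid growth factor responses to which BTG2 belongs, 2 were lower and none higher in A375+DMSO against A375P, with a median log2 ratio of -0.24 against 0.09 over all genes. With 18.9% of all genes lower in this pair, 2 of 6 is a small count to set beside the background. ARC, a gene best known from synapses, had a TPM of 15.8 in A375P, 2.59 in A375+DMSO, 6.09 in A375R and 0.812 in A375+VEM. BHLHE40, a transcriptional repressor, had a TPM of 89.8, 21.9, 51.9 and 22.9 in that order. Both were highest in A375P as BTG2 was. ATF3, which is also on the list of p53 targets, was at a log2 ratio of -0.57 in this pair, just inside the threshold. In A375R against A375P the 6 split into 2 higher and 2 lower, with ARC at -1.36 and the EGFR ligand AREG at 1.69. In A375+VEM against A375+DMSO they split likewise, with ARC at -1.56 and the chromatin factor gene ARID5B at 1.04, and AREG had 85 reads in A375+DMSO and 1 in A375+VEM. Against A375+DMSO 5 of the 6 were higher in A375R and none lower, beside 10.5% and 9.99% of all genes. The median there was 0.94 against 0.02 over all genes. In A375+VEM against A375P 2 were higher and 3 lower, beside 36.9% and 25.3%, with a median of -1.19 against 0.15.

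The FOXO targets, the class of BTG1, gave no single direction. Of 6 genes, 2 were higher and 1 lower in A375R against A375P, and 3 were higher and 1 lower in A375+VEM against A375+DMSO. The medians were 0.13 and 0.29, beside 0.10 and 0.11 over all genes. In the first of these pairs 26.8% of all genes were higher and 17.5% lower, so 2 and 1 of 6 lie near that background. In the second the shares were 26.5% and 19.7%. AGRP, counted as higher in both pairs, had 3 reads in A375P, 9 in A375+DMSO, 7 in A375R and 15 in A375+VEM. Its ratio intervals, 0.590 to 15.5 and 0.688 to 4.35, include 1. The transcriptional repressor BCL6 had a TPM of 4.52 in A375P, 13.5 in A375+DMSO, 11.7 in A375R and 40.8 in A375+VEM. The cell death gene BCL2L11 had a TPM of 3.66, 4.31, 3.08 and 13.6 in the same order. Both were highest in A375+VEM. The autophagy gene ATG12 had a TPM of 58.2, 40.3, 82.4 and 24.8, which ranks the libraries as BTG1 did. BBC3, also on this list, was likewise lowest in A375+VEM but was highest in A375P, at 65.0. The ratio interval of BBC3 in A375+VEM against A375+DMSO, 0.808 to 1.04, includes 1. In A375+DMSO against A375P 2 of the 6 were higher and 1 lower, beside 26.8% and 18.9% of all genes. AGRP was 1 of these 2, at an interval of 0.802 to 18.5. In A375R against A375+DMSO 1 was higher and 1 lower, beside 10.5% and 9.99%. In A375+VEM against A375P 3 were higher, AGRP among them, and 2 lower, beside 36.9% and 25.3%.

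Cell division genes moved together where the BTG genes did not. Of 18, 17 were lower in A375+VEM than in A375+DMSO and none higher, beside 19.7% and 26.5% of all genes. The median log2 ratio was -3.79 against 0.11 over all genes. The mitotic kinase AURKB went from 1426 reads to 37 and BIRC5, its partner at the centromere, from 1398 to 18. In the same pair the log2 ratios of BTG1, BTG2 and BTG3 were -0.26, 0.52 and -0.58. In A375R against A375P 12 of the 18 were higher and none lower, beside 26.8% and 17.5% of all genes. The median was 0.75 against 0.10 over all genes. In A375+DMSO against A375P 11 were higher and none lower, beside 26.8% and 18.9%, at a median of 0.68 against 0.09. A375P thus had the highest BTG2 and, for most of these genes, less RNA than A375R and A375+DMSO, while A375+VEM had far less of them with BTG2 at 29.6 TPM. In A375R against A375+DMSO 1 was higher and none lower, beside 10.5% and 9.99% of all genes, at a median of 0.13 against 0.02. In A375+VEM against A375P 17 were lower and none higher, beside 25.3% and 36.9% of all genes, at a median of -3.16 against 0.15.

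**Figure D3:**
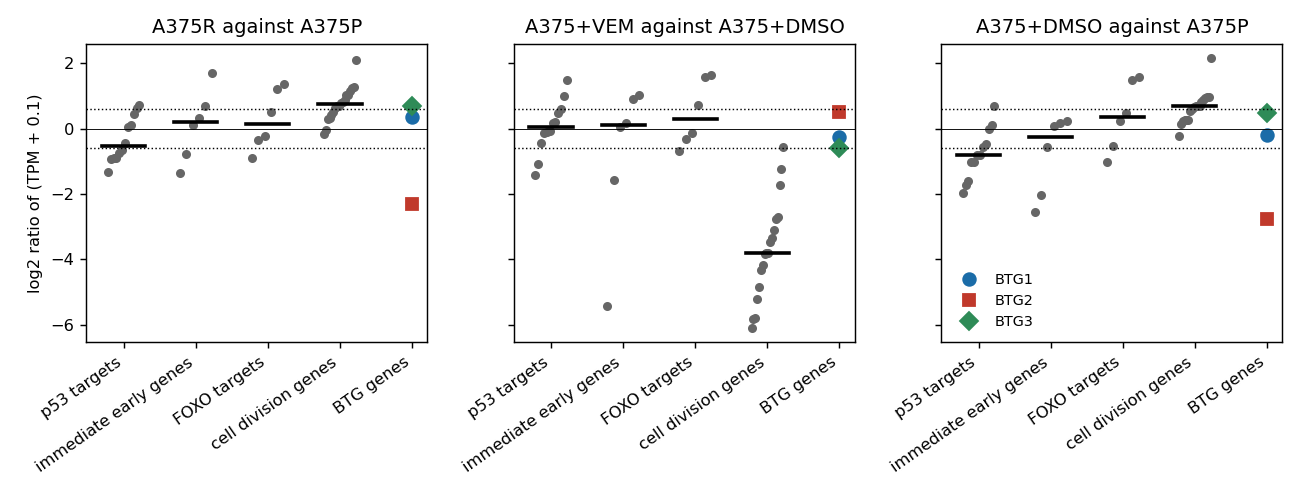
Log2 ratio of (TPM + 0.1) of the genes of 4 lists (grey points, 1 per gene; black line, median) and of the 3 BTG genes (coloured) in 3 pairs of libraries, with dotted lines at 1.5-fold. The cell division genes have a median of -3.79 in A375+VEM against A375+DMSO, where no BTG gene is past a dotted line, and BTG2 lies below every p53 target in both pairs with A375P.

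Genes with the most similar profile were found by the Euclidean distance of log2(TPM + 0.1), centred on the mean of the 4 libraries, over 1377 other protein-coding genes that reached a TPM of 5 in any library. For BTG1 the 5 nearest were C9orf85, BAZ1A, a chromatin remodelling subunit, ATXN10, the adenosine kinase gene ADK and ASAP2, at distances of 0.0778 to 0.179. For BTG3 they were ACVR2B, an activin receptor, ACD, a telomere protein, C1orf50, CAAP1 and C12orf65, at 0.105 to 0.164. BTG2 had no neighbour as close. The values were not scaled to the span of a gene, so distances tend to be larger for genes of wide span. BTG2 spanned 6.80-fold, BTG1 1.77-fold and BTG3 1.74-fold. The 5 genes nearest to BTG2 were AMMECR1 at 0.523, the amine oxidase gene AOC2 at 0.755, the adrenergic receptor gene ADRA1B at 0.758, the proton pump subunit gene ATP6V1B2 at 0.776 and BRI3 at 0.784.

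AMMECR1 had a TPM of 35.8 in A375P, 8.11 in A375+DMSO, 10.4 in A375R and 11.6 in A375+VEM, ranking the libraries as BTG2 did. AOC2, at 21.2, 1.68, 2.89 and 4.75, ranked them likewise. ADRA1B, ATP6V1B2 and BRI3 were also highest in A375P but ranked the rest otherwise. ADRA1B and ATP6V1B2 were lowest in A375R, at 1.60 and 41.7, and BRI3 in A375+VEM, at 87.2. On the same unscaled values the distance between members was 0.488 for BTG1 and BTG3, 2.13 for BTG1 and BTG2 and 2.55 for BTG2 and BTG3. With 4 libraries many genes can share a profile, and the distances describe these libraries only.

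**Figure D4:**
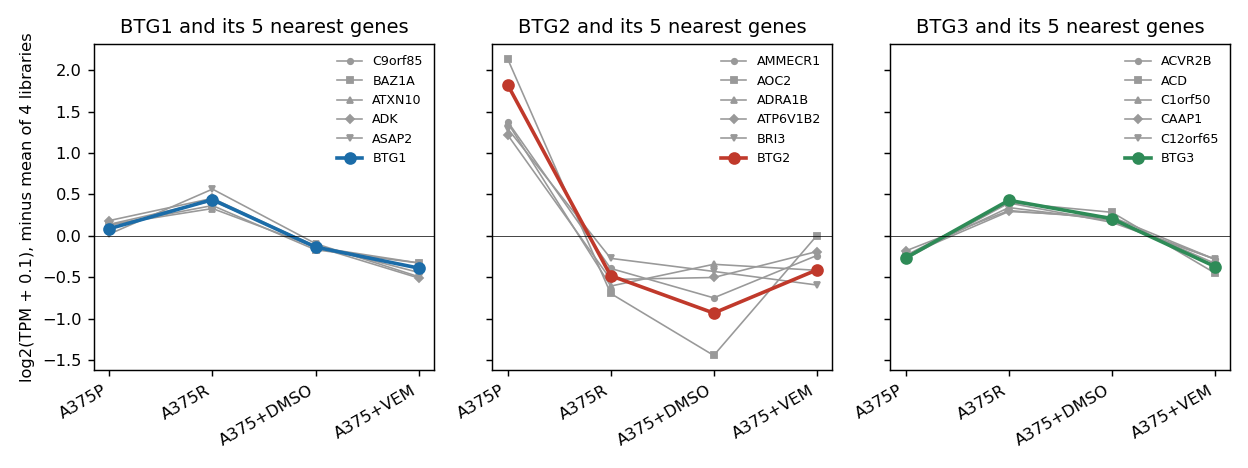
Log2(TPM + 0.1) minus its mean over the 4 libraries for each BTG gene (coloured) and its 5 nearest protein-coding genes (grey), with 1 panel per BTG gene. Lines join the libraries for reading only, and the BTG2 panel shows the peak in A375P that its neighbours share at distances of 0.523 to 0.784.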

How the data were processed

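The 4 RNA libraries, 1 for each condition, were grouped by their sample titles. The authors deposited whole-number read counts without normalization and TPM, in which each count is corrected for gene length and for the whole library. The submitters' processing notes name hg19, HISAT2, TopHat2, Bowtie2 and HISAT; their roles, versions and the annotation are not given in the sources used here. The table is sorted by name and ends early in the letter C, and 1 incomplete row was left out.

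The genes and lists were chosen with earlier results of these data known, and some targets stand on 2 lists. Named genes were the BTG genes, list members and the 5 protein-coding genes nearest in profile. Ratios were taken on TPM + 0.1 over genes that reached a TPM of 1 in either library of a pair, with 1.5-fold as the threshold. Intervals were exact Clopper-Pearson (ratios) and exact Poisson (levels) at 95%, on reads. With no replicates no test was made. The steps were tested on simulated data. Alternatives were pseudocounts of 1 and 0.01, median and TMM scaling, no filter, a TPM of at least 5 and 2-fold. Promoters are from RefSeq (3 of 3 matched by symbol). TMM factors came from edgeR 4.0.16 in R 4.3.3, and the rest from scipy 1.17.1, pandas 2.3.3, matplotlib 3.10.9 and numpy 2.4.6 under Python 3.11.15.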

Additional observations from a re-analysis of the deposited data

Results flagged for a closer look

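All 3 BTG genes had counting intervals on opposite sides of no change in the resistant pair and the acute pair, and whether the pairs differ was not tested. The log2 ratio in A375R against A375P and in A375+VEM against A375+DMSO was 0.35 and -0.26 for BTG1, -2.31 and 0.52 for BTG2, and 0.70 and -0.58 for BTG3. Of these values, those of BTG2 and BTG3 in the resistant pair were past 1.5-fold, that of BTG3 with an interval that includes the threshold. For BTG2 the contrast depends on the control. Against A375+DMSO its log2 ratio was 0.45 in A375R and 0.52 in A375+VEM, and against A375P it was -2.31 and -2.23. For BTG1 A375R was higher and A375+VEM lower against either control, at 0.57 and -0.26 with A375+DMSO and at 0.35 and -0.47 with A375P. For BTG3 the values were 0.22 and -0.58 with A375+DMSO and 0.70 and -0.10 with A375P, the last with an interval that includes 0. Comparisons with the same control share that library.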

How the results depend on the processing

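The 15 log2 ratios of the BTG genes (3 genes in 5 pairs) were recomputed under 4 alternatives each, and in none of the 60 did the sign change. Under pseudocounts of 1 and 0.01 every value stayed inside its counting interval. Under scaling to a median ratio of 1, 5 left it, and under TMM scaling over the genes of the table, 6. For BTG1 these were 0.26 (median) and 0.28 (TMM) in A375R against A375P, -0.31 and -0.29 in A375+DMSO against A375P, -0.36 and -0.41 in A375+VEM against A375+DMSO, and -0.62 and -0.70 in A375+VEM against A375P. In that last pair BTG2 was at -2.39 and -2.46, and BTG3 at -0.33 under TMM.

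Median scaling brought the BTG genes past 1.5-fold from 0 to 1 in A375+VEM against A375+DMSO (BTG3) and from 1 to 2 in A375+VEM against A375P (BTG1 joined). At 2-fold, 1 of 2 was left in A375R against A375P, BTG2.

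Over all genes, the share past 1.5-fold was 44.3% in A375R against A375P (748 genes), 46.2% in A375+VEM against A375+DMSO (825), 45.7% in A375+DMSO against A375P (786), 20.5% in A375R against A375+DMSO (349) and 62.1% in A375+VEM against A375P (1107). At 2-fold the shares were 22.2%, 26.4%, 26.0%, 8.64% and 42.0%, and with a TPM of at least 5 the fourth pair held 207 genes (15.4%). Without the filter, which admits all 2864 genes, the counts were 1237, 1282, 1266, 818 and 1584, with shares of 43.2%, 44.8%, 44.2%, 28.6% and 55.3%. The 5 genes nearest to each BTG gene were the same 5 after median scaling. Counting error rests on 320 to 544 reads for BTG3 and on 446 to 3249 for BTG2, and the spread between cultures is unknown.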

Other observations

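BANP, whose name stands for BTG3 associated nuclear protein, was chosen after its values were seen. Its reads numbered 944 in A375P, 427 in A375+DMSO, 405 in A375R and 374 in A375+VEM, or a TPM of 40.9, 19.8, 19.4 and 17.5. Its profile was highest in A375P, like that of BTG2 and unlike that of BTG3. The ratio in A375+DMSO against A375P was 0.485 (95% interval 0.431 to 0.544), and in A375+VEM against A375+DMSO it was 0.882 (0.766 to 1.02), whose interval includes 1.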
